A study of Rattus norvegicus with 105 samples.

Results

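NRF2 target genes were followed in primary rat hepatocytes by the rule that a detector probe belongs to the group when its gene symbol is Nqo1, Hmox1, Gclm, Gclc, Srxn1, Txnrd1, Ugdh, Abcc4 or Ptgr1. Of these 9 symbols, 8 were each read by 1 probe, out of 22253 probes for 20946 symbols. No probe carried the name Srxn1, and that gene was not analysed here. The hepatocytes came from female Sprague-Dawley rats, all of a single commercial lot, and were exposed for 24 h in collagen-coated 96-well plates before TempO-Seq, an assay in which detector oligonucleotides are joined on each RNA and then counted by sequencing. Set 1 (72 libraries) held nitroethane (NE) and nitromethane (NM), each at 8 concentrations between 0.003 and 10 mM, the reference compounds benzo[a]pyrene (50 µM), CITCO (10 or 20 µM), rifampin (20 or 40 µM) and WY-14643 (50 µM), and wells with DMSO or medium alone. Set 2 (33 libraries) held 1-nitropropane (1NP) at the same 8 concentrations, WY-14643, DMSO and medium. With 3 libraries (n = 3) to each of 35 groups there were 105, and since the cells were of 1 lot every p-value reflects how wells varied, not how animals vary. Whether DMSO was present in the nitroalkane wells is not given in the labels, so each treated group is given against both controls of its own set. The wells of each nitroalkane concentration lay in a single plate row, which changed with concentration and in set 1 held other groups too. Medium lay in row A and DMSO in row B, so that concentration or vehicle and plate row cannot be told apart. The wells of each reference compound at each concentration also lay in a single row, so compound and plate position cannot be told apart either.

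NRF2, encoded by Nfe2l2, is a transcription factor that KEAP1 holds at a low level in unstressed cells; electrophiles and oxidants that modify KEAP1 let it accumulate, pair with small MAF proteins and bind antioxidant response elements. In the liver its targets make glutathione, reduce quinones and aldehydes, supply sugar acids for conjugation and export the conjugates. Gclc and Gclm encode the catalytic and the modifier subunit of glutamate-cysteine ligase, which makes the first bond of glutathione. Txnrd1 encodes thioredoxin reductase, which keeps thioredoxin reduced. Nqo1 (a quinone reductase), Ptgr1 (prostaglandin reductase 1, which reduces reactive unsaturated aldehydes and ketones) and Hmox1 (heme oxygenase 1) act on reactive substrates or heme. Ugdh makes UDP-glucuronic acid, the sugar donor of glucuronidation, and Abcc4 exports organic anions, conjugates among them. Benzo[a]pyrene activates the aryl hydrocarbon receptor (AhR), whose own targets in rodents include Nqo1. CITCO and rifampin are ligands of the xenobiotic receptors CAR and PXR, best known for the human forms, and WY-14643 is a PPARα agonist.

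The promoter windows of 4 of the genes are shown because these genes rose after benzo[a]pyrene, NE or both and because their windows differ in which motif cores they hold. The sequences are those of RefSeq for rat assembly GRCr8 and run from 250 bases before to 50 bases after the annotated start; 7 of the 9 symbols had a window. Capitals mark matches, on either strand, to the core of the antioxidant response element (TGACNNNGC) or of the AhR response element (GCGTG).
Gclm, chr2:213031885-213032184, plus strand: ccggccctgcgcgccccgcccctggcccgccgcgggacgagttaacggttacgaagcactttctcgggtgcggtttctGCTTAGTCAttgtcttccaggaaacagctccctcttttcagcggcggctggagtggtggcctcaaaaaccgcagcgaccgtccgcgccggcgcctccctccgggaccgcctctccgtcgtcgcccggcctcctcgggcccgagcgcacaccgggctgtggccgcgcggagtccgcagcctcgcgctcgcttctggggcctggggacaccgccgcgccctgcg
Ugdh, chr14:43202268-43202567, plus strand: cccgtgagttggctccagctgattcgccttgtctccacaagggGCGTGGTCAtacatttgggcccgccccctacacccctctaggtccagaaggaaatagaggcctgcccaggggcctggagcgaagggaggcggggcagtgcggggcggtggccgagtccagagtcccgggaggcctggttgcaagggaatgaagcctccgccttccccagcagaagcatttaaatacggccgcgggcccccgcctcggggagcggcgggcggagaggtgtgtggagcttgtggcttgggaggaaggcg
Txnrd1, chr7:22755855-22756154, minus strand: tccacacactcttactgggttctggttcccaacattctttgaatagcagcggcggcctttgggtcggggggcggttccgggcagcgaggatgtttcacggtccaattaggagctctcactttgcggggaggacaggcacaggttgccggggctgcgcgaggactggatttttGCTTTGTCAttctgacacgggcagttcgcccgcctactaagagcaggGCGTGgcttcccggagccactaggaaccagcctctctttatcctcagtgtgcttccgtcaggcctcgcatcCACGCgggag
Nqo1, chr19:52220218-52220517, minus strand: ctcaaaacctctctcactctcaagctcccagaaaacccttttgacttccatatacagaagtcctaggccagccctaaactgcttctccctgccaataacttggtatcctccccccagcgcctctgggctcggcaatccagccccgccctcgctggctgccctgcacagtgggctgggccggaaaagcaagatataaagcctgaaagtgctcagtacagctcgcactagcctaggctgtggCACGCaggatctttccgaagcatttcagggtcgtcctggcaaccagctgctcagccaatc
In the Gclm window the antioxidant core lay at position -172 from the start, on the opposite strand. In the Ugdh window it lay at -207 and overlapped an AhR core. In the Txnrd1 window, which belongs to 1 of its annotated starts, it lay at -78, with AhR cores at -31 and 41; the window of another Txnrd1 start held neither core. The Nqo1 window held an AhR core at -10. Of 33469 rat promoter windows of 300 bases, 12.1% held the antioxidant core and 29.7% the AhR core. Of the 7 symbols with a window, 3 held the antioxidant core, all of them shown here, and 6 the AhR core. Matches are a description of these letters, and a window without a match says nothing of elements farther away.

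Libraries held 5475419 to 11122665 counts (median 8680678). Levels are given as CPM, the count scaled to its library's total, a scale that compares a gene between samples and not one gene with another, and a count of 3 corresponded to 0.270 to 0.548 CPM, covering counting error only. The lowest count of any of the 8 probes in any library was 12, for Abcc4, so all 8 were above that floor everywhere and all 8 passed the filter on low counts in every comparison. Changes are log2 differences ± SE from edgeR's quasi-likelihood test, and "called" means an adjusted p (Benjamini-Hochberg, all probes of the fit) under 0.05. Where wells of 2 groups are said not to overlap, this describes the named genes only and is not a call. The share of all probes separated in that way was not counted. In 6 cases a library stood apart from the rest of its group: NE 10 mM replicate 2, which had counts in 21627 probes against a median of 13792, and NM 10 mM replicate 3, NM 3 mM replicate 1, NM 1 mM replicate 1, 1NP 10 mM replicate 3 and NE 0.01 mM replicate 3. Hepatocyte markers such as Alb and Ttr summed to 6473 to 8726 CPM in NE at 10 mM, against 8629 to 10798 CPM in medium and 14594 to 15832 CPM in DMSO of set 1. The summed markers of stellate cells were at most 18.1 CPM, of Kupffer cells at most 19.6 CPM and of endothelium at most 8.12 CPM in NE at 10 mM, against at most 4.76, 2.62 and 0.228 CPM in medium of set 1, and the maxima came from single wells. In NE at 10 mM the Kupffer and endothelial maxima were both in replicate 2, the library with counts in 21627 probes. The 5 cholangiocyte markers (6 probes) summed to 222 to 287 CPM in NE at 10 mM and 383 to 431 CPM after benzo[a]pyrene, against 627 to 737 CPM in medium and 545 to 624 CPM in DMSO of set 1. Sox9 averaged 116 CPM in NE at 10 mM, against 428 CPM in medium and 335 CPM in DMSO of set 1. In the same order Krt19 averaged 10.7, 49.7 and 18.2 CPM and Epcam 126, 188 and 228 CPM. Spp1 averaged 7.94, 10.1 and 3.19 CPM, so that it was higher in NE than in DMSO. Both Krt7 probes were near 0. In 1NP at 10 mM Sox9 stood at 122 CPM in replicate 3, beside 527 and 481 CPM in replicates 1 and 2. The part of these shifts in the results was not tested, and in bulk wells fewer cells of a type and less RNA per cell cannot be told apart.

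Medium and DMSO wells differed from each other in some of these genes. In set 1, where medium and DMSO differed in 7.06% of 12102 probes (3.19% upward and 3.88% downward), 1 of the 8 NRF2 targets was higher in medium and 2 were lower. Hmox1 had 154, 148 and 162 CPM in medium, against 238, 226 and 230 CPM in DMSO (-0.62 ± 0.10, adjusted p = 0.000106). Gclc had 65.8, 64.8 and 60.6 CPM in medium, against 92.6, 82.1 and 75.8 CPM in DMSO (-0.43 ± 0.11, adjusted p = 0.00993). Abcc4 had 6.61, 7.89 and 11.6 CPM in medium, against 3.67, 4.84 and 5.24 CPM in DMSO (0.88 ± 0.25, adjusted p = 0.0250). The wells of medium and DMSO did not overlap for any of these 3 genes, but the Gclc call was lost without DMSO replicate 1 (-0.36, adjusted p = 0.0873) or medium replicate 3 (-0.39, adjusted p = 0.0726), and that of Abcc4 without DMSO replicate 1 (0.74, adjusted p = 0.155), DMSO replicate 2 (0.92, adjusted p = 0.0689) or medium replicate 3 (0.62, adjusted p = 0.244). In set 2, where 11.6% of 11538 probes were higher in medium and 12.4% lower, 4 of the 8 were lower in medium: Txnrd1 (-1.37 ± 0.22), Gclc (-0.63 ± 0.15), Ugdh (-0.61 ± 0.14) and Hmox1 (-0.40 ± 0.11), the last with an adjusted p of 0.0690 without DMSO replicate 5 and 0.0503 without DMSO replicate 6. Txnrd1 stood at 65.8, 30.7 and 58.8 CPM in medium of set 2, against 124, 121 and 131 CPM in DMSO of set 2. A test of the medium-to-DMSO difference in set 2 against that in set 1, chosen after the data were seen, called none of the 8 (Txnrd1 -1.28 ± 0.41, adjusted p = 0.144; Ugdh -0.53 ± 0.18, adjusted p = 0.125) and 1.03% of 11759 probes. Every comparison below shares its control libraries with the others of its set, so the comparisons are not independent of each other.

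Benzo[a]pyrene raised 6 of the 8 NRF2 targets above DMSO and lowered none, in a comparison where 9.17% of 12102 probes were called (4.1% higher and 5.07% lower). The median change of the 8 was 1.03, against 0.00 over all probes. The quinone reductase Nqo1 moved most. It had 559, 616 and 472 CPM after benzo[a]pyrene, against 29.5, 30.2 and 34.7 CPM in DMSO, a 16.7-fold difference (4.07 ± 0.15, adjusted p = 2.69e-18). Ptgr1 had 630, 651 and 703 CPM after benzo[a]pyrene, against 91.4, 81.4 and 93.7 CPM in DMSO, a 7.12-fold difference (2.83 ± 0.10, adjusted p = 1.13e-18). For both genes every benzo[a]pyrene well was far above every DMSO well.

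The glutathione-making pair also rose with benzo[a]pyrene, by less. Gclm had 62.7, 68.1 and 81.0 CPM, against 32.3, 33.8 and 32.9 CPM in DMSO (1.03 ± 0.12, adjusted p = 3.77e-07). Gclc had 166, 168 and 138 CPM, against 92.6, 82.1 and 75.8 CPM in DMSO (0.85 ± 0.11, adjusted p = 1.05e-06). Ugdh had 184, 175 and 112 CPM, against 79.7, 78.2 and 64.1 CPM in DMSO (1.03 ± 0.17, adjusted p = 0.000184). The exporter Abcc4 had 9.53, 12.6 and 12.1 CPM, against 3.67, 4.84 and 5.24 CPM in DMSO (1.25 ± 0.25, adjusted p = 0.000712). In each of these 4 genes the 3 benzo[a]pyrene wells lay above the 3 DMSO wells.

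Txnrd1 and Hmox1 did not pass the test against DMSO. Txnrd1 had 240, 211 and 70.2 CPM after benzo[a]pyrene, against 101, 99.2 and 51.4 CPM in DMSO (1.00 ± 0.45, adjusted p = 0.209). Benzo[a]pyrene replicate 3 lay within the DMSO range, and without that well the difference was 1.39 with an adjusted p of 0.0445. Replicate 3 was the low well of DMSO too, and Txnrd1 was higher after benzo[a]pyrene in each same-numbered pair, but with the replicate block it was also not called (0.98, adjusted p = 0.241). In edgeR without the filter on low counts Txnrd1 was called against DMSO (0.99, adjusted p = 2.0e-15) and medium (1.11, adjusted p = 1.64e-19). That setting also gave a small value to Ugdh in 1NP at 10 mM against medium (adjusted p = 1.15e-10), where the wells did not agree. Its calls stand here without a share of all probes and are no result about Txnrd1. Hmox1 had 232, 232 and 216 CPM after benzo[a]pyrene, against 238, 226 and 230 CPM in DMSO (-0.09 ± 0.10, adjusted p = 0.662; 95% interval -0.29 to 0.10). Against medium, in which 19.7% of probes were called (9.3% higher and 10.4% lower), 6 of the 8 were higher: Hmox1 passed (0.53 ± 0.10, adjusted p = 0.000212) and Abcc4 did not (0.37 ± 0.23, adjusted p = 0.306). Those are the genes, with Gclc, whose control levels differed.

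**Figure D1:**
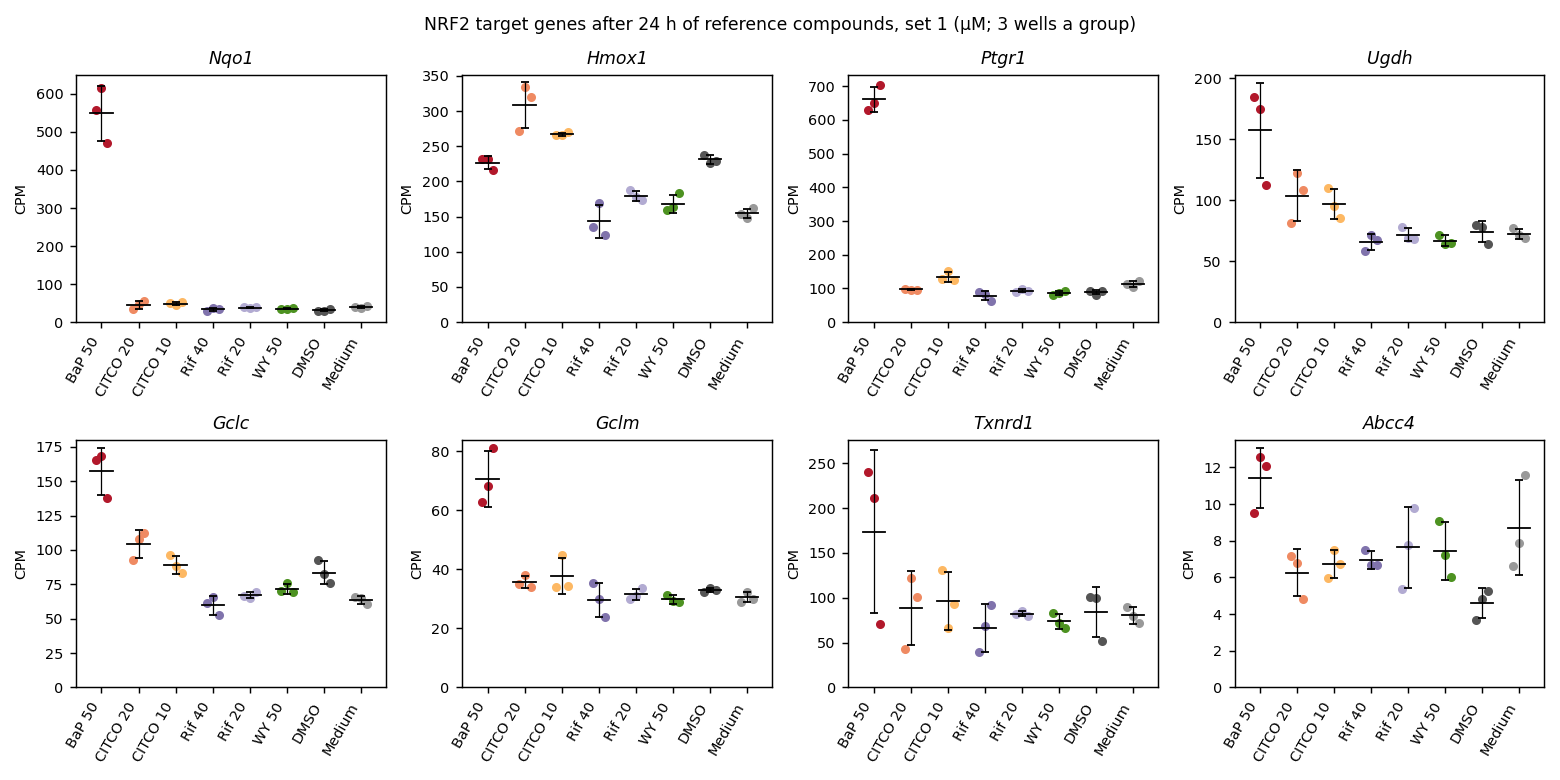
Levels of the 8 NRF2 target genes in CPM (vertical axes, linear from 0) in each of 3 wells (points) with mean and SD (bars), after benzo[a]pyrene (BaP), CITCO, rifampin (Rif) and WY-14643 (WY; numbers give µM) and in DMSO and medium of set 1. Nqo1 and Ptgr1 stand far above the other groups with benzo[a]pyrene (means of 549 and 661 CPM), whereas Hmox1 is highest with CITCO at 20 µM, and Txnrd1 has 1 low benzo[a]pyrene well.

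CITCO moved few of these genes, and which ones depended on the control. At 20 µM, against DMSO, none of the 8 was called, in a comparison where 0.843% of 12102 probes were called (0.372% higher and 0.471% lower). The number of probes with an unadjusted p under 0.05 in that comparison was 1274, DESeq2 called Hmox1 among the 8, and edgeR without the filter on low counts called Hmox1, Nqo1 and Ugdh. Without replicate 1 of CITCO at 20 µM, Hmox1 (0.48, adjusted p = 0.0169) and Nqo1 (0.69, adjusted p = 0.00267) were called. The shares of all probes called in these refits are not given. These calls therefore describe only how the count depends on the fit and on single wells. Against medium, where 7.33% of probes were higher and 7.42% lower, 3 of the 8 were higher. Hmox1 had 272, 334 and 320 CPM at 20 µM CITCO, against 154, 148 and 162 CPM in medium (1.01 ± 0.10, adjusted p = 2.01e-08). Gclc had 92.8, 108 and 112 CPM, against 65.8, 64.8 and 60.6 CPM in medium (0.73 ± 0.11, adjusted p = 1.37e-05). Ugdh had 80.9, 122 and 108 CPM, against 76.8, 71.2 and 68.6 CPM in medium (0.54 ± 0.17, adjusted p = 0.0340), a call that was lost when any well other than CITCO replicate 1 was left out (0.40 to 0.59, adjusted p from 0.0586 to 0.169). The change of Hmox1 against DMSO was 0.39 ± 0.10 (adjusted p = 0.0549). The Hmox1 and Gclc calls were made against medium, the control in which both genes were lower.

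At 10 µM CITCO, Ptgr1 was called against DMSO, with 129, 151 and 124 CPM against 91.4, 81.4 and 93.7 CPM (0.57 ± 0.10, adjusted p = 0.00556; 0.0909% of probes were called higher there and 0.0578% lower). That call was lost without CITCO replicate 2 (0.49, adjusted p = 0.129) or DMSO replicate 2 (0.51, adjusted p = 0.110). Against medium, Hmox1 (0.80 ± 0.10, adjusted p = 1.10e-05) and Gclc (0.50 ± 0.11, adjusted p = 0.00681) were called, beside 2.58% of all probes (1.83% higher and 0.744% lower); Gclc was no longer called without CITCO replicate 1 (0.42, adjusted p = 0.0793) or medium replicate 3 (0.46, adjusted p = 0.0702). Between the 2 concentrations only Ptgr1 was called, with 99.0, 95.8 and 96.2 CPM at 20 µM, against 129, 151 and 124 CPM at 10 µM (-0.47 ± 0.10, adjusted p = 0.00904; 0.818% of probes were higher and 1.12% lower), and without replicate 2 of the 10 µM wells its adjusted p was 0.0786 (-0.39). The other 7 changes between concentrations ran from -0.12 to 0.23. None of the 8 was called higher at the higher concentration. The DMSO wells and the 10 µM wells lay in the plate rows on either side of benzo[a]pyrene, in the same columns. The 20 µM wells lay elsewhere on the plate. Cyp1b1, an AhR target, averaged 14.8 CPM at 10 µM CITCO, against 0.327 CPM at 20 µM, 0.458 CPM in DMSO and 663 CPM after benzo[a]pyrene. Tiparp, another AhR target, averaged 5.96 CPM at 10 µM and 5.95 CPM in DMSO. Cyp1a2 averaged 34.5 CPM at 10 µM and 17.6 CPM at 20 µM, against 6.35 CPM in DMSO. For Cyp1a1 these means were 22.2, 25.9 and 9.40 CPM in the same order. Aldh3a1 had 167, 65.4 and 85.8 CPM, and Ahrr was below 1 CPM in all of them. The part of plate position in the Ptgr1 differences was not tested.

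Set directly against CITCO at 20 µM, benzo[a]pyrene was higher in 6 of the 8 genes and lower in Hmox1 (6.89% of probes higher, 7.19% lower). Nqo1 differed by 3.56 ± 0.14 (adjusted p = 3.90e-17) and Ptgr1 by 2.73 ± 0.10 (adjusted p = 2.64e-18). Gclm differed by 0.94 ± 0.12, Abcc4 by 0.83 ± 0.24, Ugdh by 0.57 ± 0.17 and Gclc by 0.55 ± 0.11. The Ugdh call was lost without benzo[a]pyrene replicate 1 (0.42, adjusted p = 0.138), benzo[a]pyrene replicate 2 (0.47, adjusted p = 0.108) or CITCO replicate 1 (0.41, adjusted p = 0.125), and that of Abcc4 without benzo[a]pyrene replicate 2 (0.73, adjusted p = 0.0792) or CITCO replicate 3 (0.67, adjusted p = 0.0984). Hmox1 was lower by the same test (-0.48 ± 0.10, adjusted p = 0.000959), with 232, 232 and 216 CPM after benzo[a]pyrene and 272, 334 and 320 CPM after CITCO at 20 µM. The heme oxygenase gene ran against the other called genes in this pair. Against CITCO at 10 µM, 5 of the 8 were higher and none was lower (8.94% of probes called, 3.59% higher and 5.35% lower), with Hmox1 at -0.27 ± 0.10 (adjusted p = 0.0884). Of these 5, Ugdh lost its call without CITCO replicate 2 (adjusted p = 0.0511) or 3 (adjusted p = 0.0722), without benzo[a]pyrene replicate 1 (adjusted p = 0.0677) or 2 (adjusted p = 0.0604), and in a fit on the compared libraries alone (adjusted p = 0.0940). The doses of benzo[a]pyrene and CITCO differ.

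Rifampin and WY-14643 raised none of the 8 in set 1. With rifampin at 40 µM, Hmox1 had 135, 170 and 124 CPM, against 238, 226 and 230 CPM in DMSO (-0.77 ± 0.10, adjusted p = 0.000141), and Gclc changed by -0.56 ± 0.11 (adjusted p = 0.00350; 1.69% of probes called, 0.545% higher and 1.14% lower). With rifampin at 20 µM, Hmox1 alone was called against DMSO (-0.41 ± 0.10; 2.87% of probes called, 1.1% higher and 1.77% lower), a call lost without rifampin replicate 3 (-0.40, adjusted p = 0.104) or DMSO replicate 1 (-0.40, adjusted p = 0.0867), and with WY-14643 likewise (-0.57 ± 0.10; 4.88% called, 2.35% higher and 2.54% lower). Against medium, where Hmox1 was lower than in DMSO, neither compound gave a call for it: the differences were 0.21 (rifampin 20 µM), -0.15 (rifampin 40 µM) and 0.05 (WY-14643), with adjusted p of 0.617, 0.486 and 0.842. With rifampin at 20 µM none of the 8 was called against medium, nor were more than 0.273% of all probes. Ptgr1 was the gene called against medium, lower with rifampin at 40 µM (-0.56 ± 0.10; 3.31% of probes called, 1.43% higher and 1.88% lower) and with WY-14643 (-0.44 ± 0.10; 5.8% called, 3.1% higher and 2.7% lower), the WY-14643 value having an adjusted p of 0.0735 without WY-14643 replicate 1 and 0.0558 without medium replicate 3. In set 2, WY-14643 gave no call against DMSO (0.901% of probes called, 0.667% higher and 0.234% lower; 696 of 11538 probes had an unadjusted p under 0.05) and, against medium, higher Txnrd1 (1.08 ± 0.22) and Ugdh (0.40 ± 0.14) with lower Ptgr1 (-0.48 ± 0.15; 8.92% higher, 8.02% lower). The Ugdh and Ptgr1 calls were each lost when any of several single wells was left out, with adjusted p up to 0.210 and 0.187.

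NE at 10 mM raised 7 of the 8 NRF2 targets against either control. Of 12364 probes, 17.2% were called higher and 18% lower than in medium, and 14.6% and 15.8% against DMSO. The median change of the 8 was 1.43 against medium, where the median over all probes was 0.03. Against medium Ugdh moved most: it had 315, 278 and 287 CPM in NE at 10 mM, against 76.8, 71.2 and 68.6 CPM in medium, a 4.08-fold difference (2.03 ± 0.24, adjusted p = 7.29e-08). Txnrd1 had 292, 250 and 239 CPM, against 89.5, 79.9 and 71.3 CPM in medium (1.70 ± 0.26, adjusted p = 8.67e-06). Ptgr1 had 323, 343 and 325 CPM, against 112, 103 and 123 CPM in medium (1.55 ± 0.14, adjusted p = 9.18e-10). In all 3 genes every NE well was far above every medium well.

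The remaining genes rose by less. Abcc4 had 20.9, 24.5 and 25.6 CPM in NE at 10 mM, against 6.61, 7.89 and 11.6 CPM in medium (1.44 ± 0.21, adjusted p = 3.60e-06). Gclc had 173, 183 and 161 CPM, against 65.8, 64.8 and 60.6 CPM in medium (1.43 ± 0.13, adjusted p = 4.46e-10). Hmox1 had 399, 366 and 368 CPM, against 154, 148 and 162 CPM in medium (1.29 ± 0.12, adjusted p = 9.88e-10). These wells did not overlap with medium, nor with DMSO, in which Hmox1 was higher.

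Nqo1, the gene with the largest response to benzo[a]pyrene, had 93.5, 77.5 and 89.6 CPM in NE at 10 mM, against 40.7, 36.7 and 41.3 CPM in medium (1.14 ± 0.21, adjusted p = 7.96e-05). Gclm was the exception, with 39.5, 34.6 and 55.6 CPM, against 29.1, 32.4 and 30.1 CPM in medium (0.52 ± 0.28, adjusted p = 0.152). Its 3 NE wells were above the medium wells but spread widely. Without the 6 libraries that stood apart, a choice made after the data were seen, Gclm differed by 0.73 (adjusted p = 0.00969) and 8 of 8 were called, as were 18.1% of 12405 probes upward and 18.7% downward. Against DMSO the same 7 genes were called, with Abcc4 at 2.32 ± 0.22, Ugdh at 1.95 ± 0.23 and Hmox1 at 0.67 ± 0.12.

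Below 10 mM the NE response was smaller and involved fewer genes. At 3 mM, 4 of the 8 were higher than in medium (6.64% of probes higher, 5.89% lower). Hmox1 had 254, 235 and 249 CPM, against 154, 148 and 162 CPM in medium (0.75 ± 0.12, adjusted p = 4.91e-05). Nqo1 had 56.9, 66.7 and 64.1 CPM, against 40.7, 36.7 and 41.3 CPM in medium (0.74 ± 0.21, adjusted p = 0.0174). Gclc differed by 0.56 ± 0.13 (adjusted p = 0.00272) and Ptgr1 by 0.42 ± 0.14 (adjusted p = 0.0472), a call lost without any 1 of the 6 wells (0.35 to 0.48, adjusted p from 0.0715 to 0.187). The Nqo1 call was lost without NE replicate 2 (0.69, adjusted p = 0.0678) or 3 (0.72, adjusted p = 0.0531), or without medium replicate 2 (0.68, adjusted p = 0.0760) or 3 (0.76, adjusted p = 0.0530). Ugdh and Txnrd1, the 2 genes that moved most against medium at 10 mM, were at 0.18 ± 0.23 and -0.10 ± 0.26 at 3 mM, with single wells from 49.5 to 101 CPM and from 36.7 to 102 CPM. Against DMSO, Nqo1 (1.03 ± 0.21), Ptgr1 (0.72 ± 0.14) and Abcc4 (0.76 ± 0.23) were called at 3 mM (3.66% of probes higher, 3.23% lower), Abcc4 not when any well other than NE replicate 1 was left out (adjusted p from 0.0594 to 0.194).

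At 1 mM and below no NE concentration gave a call against medium. The call rate over all probes in those comparisons was at most 0.267%, and at 1 mM 1287 probes had an unadjusted p under 0.05. Over the 5 concentrations below 1 mM the 40 gene values against medium ran from -0.54 to 0.62. Against DMSO, Abcc4 was called at 1 mM (0.85 ± 0.23; 1.26% of probes higher, 1.59% lower), though not when any 1 of the 6 wells was left out (0.72 to 0.95, adjusted p from 0.0525 to 0.185), and 4 of the 40 values below 1 mM were called, in both directions, where 2.73% to 5.9% of all probes were. These 4 were Nqo1 and Hmox1 at 0.01 mM, Hmox1 at 0.003 mM and Abcc4 at 0.3 mM, with Hmox1 lower and the others higher. Without NE 0.01 mM replicate 3, 1 of the libraries that stood apart, and the other 5, Nqo1 was at 0.47 (adjusted p = 0.137) and Hmox1 at -0.33 (adjusted p = 0.0700) at 0.01 mM. Nqo1 at 0.01 mM was also not called without DMSO replicate 1 or 2 (adjusted p = 0.0928 and 0.0762), nor Abcc4 at 0.3 mM without either (adjusted p = 0.120 and 0.0555), nor Hmox1 at 0.01 mM without any 1 of the DMSO wells (adjusted p from 0.0822 to 0.139). The linear trend over the ranks of the 8 concentrations was called upward for 7 genes, from 0.12 (Nqo1) to 0.17 (Abcc4) per step in concentration, with 15.9% of probes called upward and 19.2% downward; Gclm was at 0.01 ± 0.03 per step.

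NM, the shortest of the 3 nitroalkanes, raised none of the 8 at any concentration against medium. At 10 mM, 0.579% of 12261 probes were called higher than in medium and 0.188% lower, and 1986 had an unadjusted p under 0.05; DESeq2 called none of the 8 either. Nqo1 had 41.3, 39.5 and 29.4 CPM in NM at 10 mM, against 40.7, 36.7 and 41.3 CPM in medium (-0.15 ± 0.16; 95% interval -0.46 to 0.16). Ugdh had 75.9, 64.5 and 64.9 CPM, against 76.8, 71.2 and 68.6 CPM in medium (-0.12 ± 0.15). The wells of NM and medium overlapped for Nqo1 and Ugdh. Against DMSO the call at 10 mM was Hmox1, lower (-0.39 ± 0.11, adjusted p = 0.0279; 4.49% of probes higher, 3.47% lower), and at 1 mM again Hmox1 (-0.53 ± 0.11; 1.12% higher, 1.2% lower). The 10 mM call was lost without NM replicate 2 (-0.31, adjusted p = 0.101), DMSO replicate 1 (-0.37, adjusted p = 0.0880) or DMSO replicate 2 (-0.41, adjusted p = 0.0560). Below 1 mM none of 40 values was called against medium, and against DMSO 4 were (Hmox1 lower at 0.003, 0.03 and 0.3 mM, Nqo1 higher at 0.003 mM), where 1.12% to 4.05% of all probes were. Nqo1 at 0.003 mM lost its call without any 1 of the DMSO wells (adjusted p from 0.0639 to 0.217), and Hmox1 at 0.03 mM without DMSO replicate 1 (adjusted p = 0.0906) or 2 (adjusted p = 0.0571).

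In NM the libraries that stood apart were low in Gclm. Gclm had 30.1, 28.3 and 5.60 CPM at 10 mM, 7.69, 28.6 and 28.0 CPM at 3 mM and 13.3, 29.3 and 34.1 CPM at 1 mM, against 29.1, 32.4 and 30.1 CPM in medium. Ptgr1 was low in the same libraries, at 58.1 CPM in replicate 3 of 10 mM and 55.2 CPM in replicate 1 of 3 mM, against 103 to 123 CPM in medium. The other wells of these groups lay near medium. Without the 6 libraries that stood apart, no gene was called against medium at 10 mM, while 3 were called against DMSO, with Hmox1 and Gclc lower and Abcc4 higher (6.06% of 12307 probes higher, 5.15% lower). The trend over NM concentrations was called for Nqo1 (-0.06 ± 0.02 per step, adjusted p = 0.0354; 7.67% of probes upward, 3.05% downward), and without those libraries it was -0.03 with an adjusted p of 0.189. The trend was also not called without 10 mM replicate 3 (-0.04, adjusted p = 0.162), 3 mM replicate 1 (-0.05, adjusted p = 0.0841) or 1 mM replicate 1 (-0.05, adjusted p = 0.0519).

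**Figure D2:**
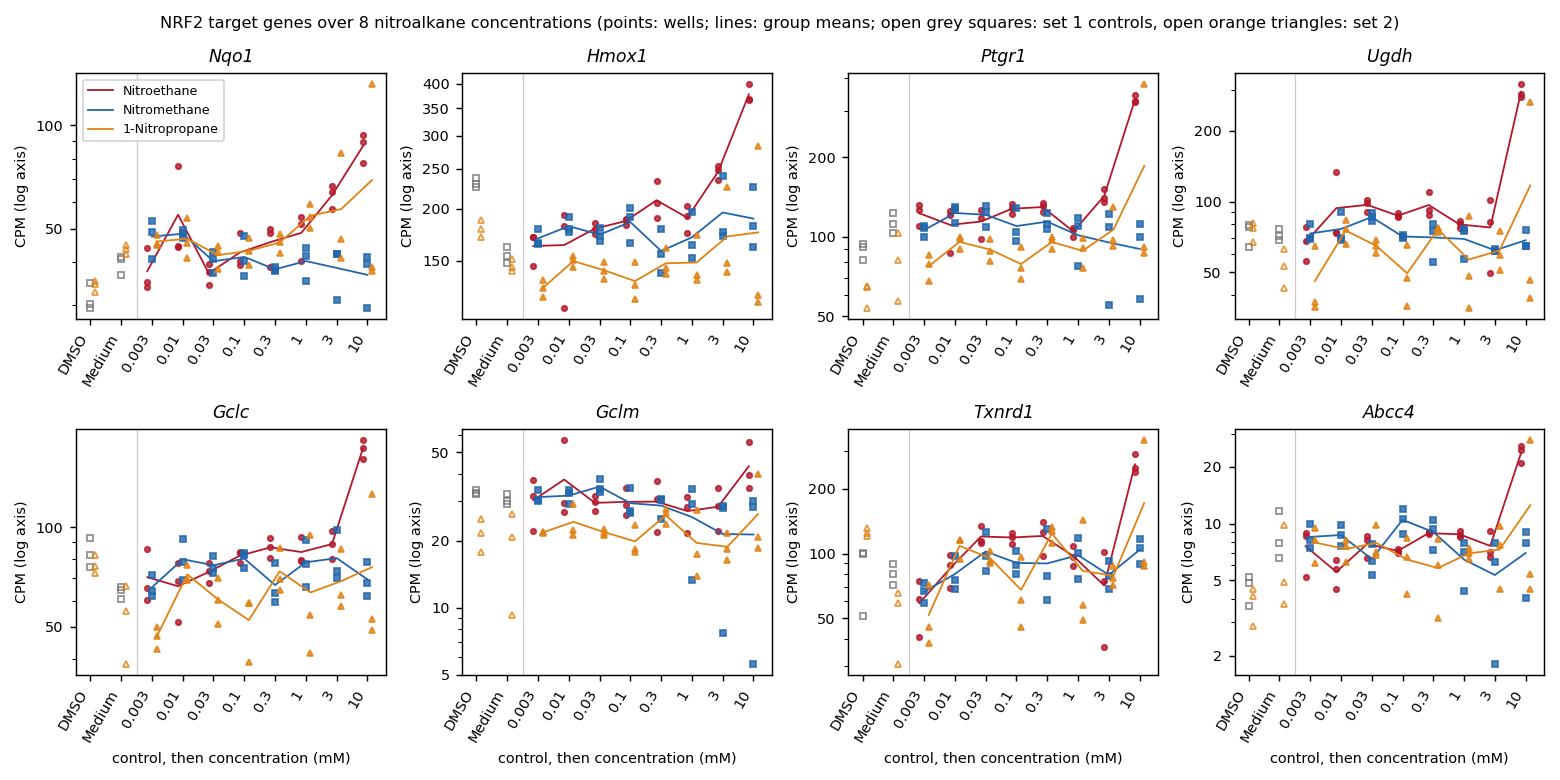
Levels of the 8 genes (CPM, logarithmic vertical axes) in single wells (points) and group means (lines) over 8 concentrations of NE (red circles), NM (blue squares) and 1NP (orange triangles), with DMSO and medium of set 1 (open grey squares) and set 2 (open orange triangles) at the left. NE at 10 mM has the highest NE mean in every panel, NM stays near medium apart from low single wells in Gclm and Ptgr1, and in 1NP at 10 mM 1 of 3 wells is high in every panel, as in Ugdh with 266 CPM beside 46.6 and 38.9 CPM.

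In 1NP at 10 mM the 3 wells did not agree. Replicate 3, which stood apart from its group over all genes, was high in each of the 8 genes, while replicates 1 and 2 stayed near the controls of set 2. Ptgr1 had 86.9, 91.7 and 377 CPM in 1NP at 10 mM, against 104, 81.6 and 57.3 CPM in medium (1.30 ± 0.36, adjusted p = 0.0238). Txnrd1 had 91.4, 87.1 and 337 CPM, against 65.8, 30.7 and 58.8 CPM in medium (1.82 ± 0.46, adjusted p = 0.0164). These 2 of the 8 were called against medium, where 7.92% of 12160 probes were higher and 5.35% lower, and Ptgr1 alone against DMSO (1.60 ± 0.36, adjusted p = 0.0197; 1.02% higher, 0.888% lower). Without replicate 3 the changes against medium were 0.19 for Ptgr1 (adjusted p = 0.586) and 0.82 for Txnrd1 (adjusted p = 0.251), and none of the 8 was called against medium. Against DMSO, without replicate 3, Ptgr1 was at 0.49 (adjusted p = 0.103) and Hmox1 was called lower (-0.62, adjusted p = 0.0127). Without replicate 1 or replicate 2 instead, 5 of the 8 were called against medium, Ugdh, Abcc4 and Nqo1 joining them, in fits that called 20.4% and 17.0% of all probes. Single control wells ended calls too. Without medium replicate 5 neither gene passed (Txnrd1 1.56, adjusted p = 0.108; Ptgr1 1.32, adjusted p = 0.107), and without medium replicate 6 Ptgr1 did not (1.15, adjusted p = 0.0640), and against DMSO the Ptgr1 call was lost without any 1 of the DMSO wells (adjusted p from 0.0806 to 0.107).

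The other genes showed the same split among wells. Ugdh had 46.6, 38.9 and 266 CPM in 1NP at 10 mM, against 62.9, 53.2 and 42.8 CPM in medium (1.26 ± 0.49, adjusted p = 0.0852). Nqo1 had 37.6, 38.7 and 132 CPM, against 42.4, 43.5 and 44.8 CPM in medium (0.76 ± 0.32, adjusted p = 0.106). Abcc4 had 5.40, 4.48 and 27.7 CPM, against 9.83, 4.89 and 3.77 CPM in medium (1.13 ± 0.48, adjusted p = 0.109). Replicates 1 and 2 of Nqo1 were below all 3 medium wells, and those of Ugdh and Abcc4 lay within or below the medium range.

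Hmox1 in 1NP at 10 mM had 119, 124 and 284 CPM, against 152, 145 and 142 CPM in medium, so that replicates 1 and 2 were also below medium. Gclc had 52.8, 49.1 and 125 CPM, against 66.6, 55.7 and 38.7 CPM in medium. Gclm had 20.8, 18.6 and 39.7 CPM, against 26.4, 20.7 and 9.28 CPM in medium. Replicate 3 of 1NP was also the highest well at 3 mM in Nqo1 (41.1, 46.7 and 83.4 CPM) and Hmox1 (148, 141 and 226 CPM), and at 1 mM in Txnrd1 (48.9, 57.3 and 143 CPM). No gene was called at 3 mM or 1 mM against either control (at 3 mM 0.288% of probes were higher and 0.074% lower than in medium, and 0.321% and 0.222% against DMSO; at 1 mM 0.0411% were higher and 0 probes lower than in medium, and 0.847% and 0.378% against DMSO). At 3 mM 2017 probes had an unadjusted p under 0.05 against medium and 1754 against DMSO, and at 1 mM 1418 and 2060. None of the 8 trends over concentration was called (3.5% of probes upward, 1.12% downward; 2631 with an unadjusted p under 0.05), Ptgr1 being nearest at 0.13 ± 0.04 per step (adjusted p = 0.0625); DESeq2 called that of Ptgr1. Below 1 mM none of 40 values was called against medium, and against DMSO Txnrd1 was called lower at 0.003 mM (-1.37, adjusted p = 0.0409; from 0.0787 to 0.0893 without any 1 of the DMSO wells), where 0.329% to 17.5% of all probes were called at those concentrations.

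**Figure D3:**
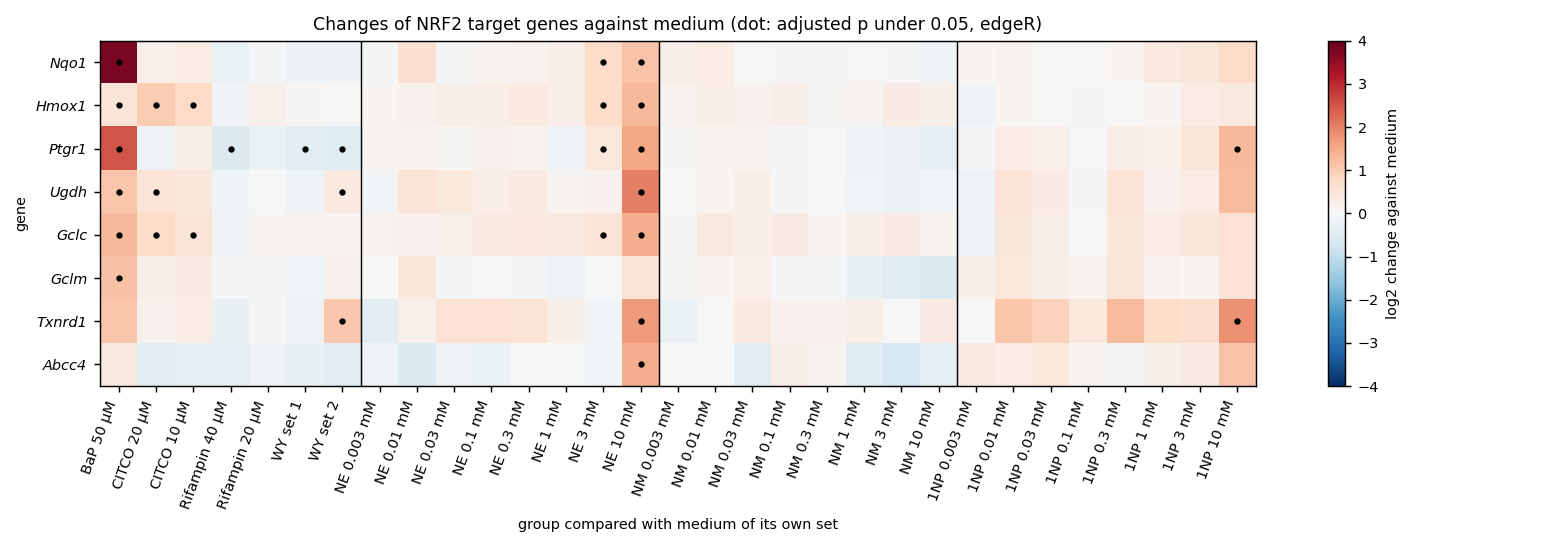
Log2 changes of the 8 genes (rows) against medium of the same set (colour scale, red higher and blue lower) for each reference compound and each nitroalkane concentration (columns), with a dot where the adjusted p was under 0.05. NE at 10 mM has dots in 7 of 8 genes and benzo[a]pyrene in 6, NM has none, and 1NP has 2 at 10 mM.

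The nitroalkanes carry a nitro group on chains of increasing length, from NM through NE to 1NP, and were compared at matched concentrations in 14 pairs, each adjusted over all probes of its fit. NE and NM, both of set 1, were compared directly at each of the 8 concentrations. At 10 mM, 7 of the 8 genes were higher with NE than with NM, where 5.47% of 11551 probes were higher and 6.23% lower. Ugdh differed most, by 2.16 ± 0.20 (95% interval 1.76 to 2.56, adjusted p = 0.000802), with 315, 278 and 287 CPM in NE and 75.9, 64.5 and 64.9 CPM in NM. Ptgr1 differed by 1.92 ± 0.28 (adjusted p = 0.00405) and Abcc4 by 1.80 ± 0.34 (adjusted p = 0.0132). Txnrd1 (1.38), Gclc (1.36), Nqo1 (1.30) and Hmox1 (1.05) were called as well. In these 7 genes every NE well was above every NM well, a separation whose share over all probes was not counted. Without NE replicate 1 or replicate 3 the count was 4, beside 3.64% of all probes in either fit, with Abcc4, Nqo1 and Hmox1 no longer called (adjusted p from 0.0658 to 0.0803), and Hmox1 was also lost without NM replicate 1 (adjusted p = 0.0564) or NM replicate 2 (adjusted p = 0.0737). Gclm differed by 1.07 ± 0.55 (95% interval -0.02 to 2.15, adjusted p = 0.264).

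At 3 mM none of the 8 was called between NE and NM, in a fit that called 0.0179% of 11168 probes higher and 0 lower and gave 946 an unadjusted p under 0.05. Nqo1 differed by 0.75 ± 0.23 (95% interval 0.31 to 1.20, adjusted p = 0.431) and Ptgr1 by 0.63 ± 0.30 (adjusted p = 0.617). At 1 mM and below none was called, with differences from -0.57 to 0.43 below 1 mM. These misses do not show that the compounds act alike, since the intervals at 3 mM reach a log2 difference above 1 for 4 genes. At 1 mM no probe at all was called and 201 had an unadjusted p under 0.05.

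Since 1NP was run in set 2, its change against its own medium was set against the change of NM or NE against theirs, at 10, 3 and 1 mM. None of the 8 was called in any of these 6 comparisons, and neither was any of the probes tested, which numbered 11729 to 12012; at 10 mM, 1248 probes against NM and 1185 against NE had an unadjusted p under 0.05. At 10 mM the difference between 1NP and NM was 1.66 for Ptgr1 (95% interval 0.33 to 3.00) and 1.37 for Ugdh (-0.14 to 2.88). The difference between 1NP and NE was -0.24 for Ptgr1 (-1.58 to 1.09) and -0.77 for Ugdh (-2.47 to 0.92). These intervals are wide in both directions. Without the libraries that stood apart, 1NP replicate 3 among them, 6 of the 8 were lower with 1NP than with NE, in a fit that called 8.62% of 11989 probes higher and 6.69% lower, Ugdh by -2.41 (adjusted p = 3.56e-07) and Hmox1 by -1.62 (adjusted p = 2.48e-06).

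**Figure D4:**
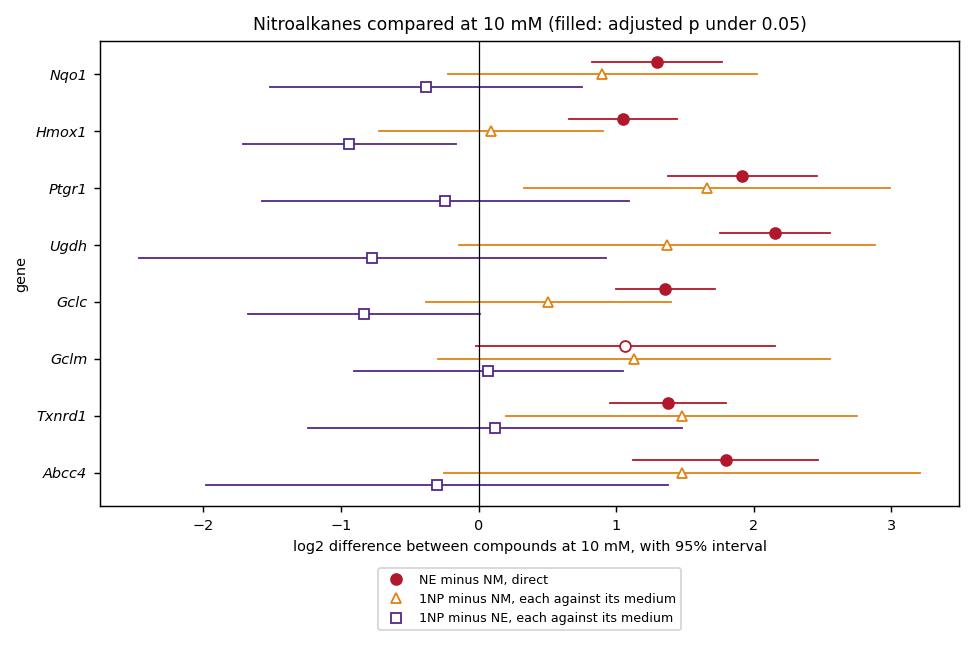
Log2 differences between nitroalkanes at 10 mM (horizontal axis) with 95% intervals (lines) for the 8 genes (rows), for NE minus NM in the same set (circles), 1NP minus NM (triangles) and 1NP minus NE (squares), the last 2 each against medium of its set. Filled symbols had an adjusted p under 0.05; NE minus NM is filled in 7 genes, whereas the 1NP intervals are wide and no 1NP symbol is filled.

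The 2 strongest responses of set 1, NE at 10 mM and benzo[a]pyrene at 50 µM, differed in which genes they moved, at doses that are not matched. Of the 8 genes, 3 were higher with NE and 3 lower, beside 10.8% of 11441 probes higher and 11% lower. Nqo1 was lower with NE by -2.62 ± 0.20 (adjusted p = 9.90e-07), at 93.5, 77.5 and 89.6 CPM in NE and 559, 616 and 472 CPM with benzo[a]pyrene. Ptgr1 (-0.96 ± 0.16, adjusted p = 0.000863) and Gclm (-0.65 ± 0.20, adjusted p = 0.0320) were lower with NE too, the last with an adjusted p of 0.0718 without NE replicate 2, 0.0996 without NE replicate 1, 0.0809 without benzo[a]pyrene replicate 2 and 0.0911 without benzo[a]pyrene replicate 3. Abcc4 (1.09 ± 0.20, adjusted p = 0.00171), Ugdh (0.94 ± 0.21, adjusted p = 0.00529) and Hmox1 (0.78 ± 0.16, adjusted p = 0.00393) were higher with NE. Gclc (0.17 ± 0.16) and Txnrd1 (0.61 ± 0.45) did not pass the test (95% intervals -0.14 to 0.47 and -0.28 to 1.5).

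The AhR battery gives the measure of that receptor's targets in the same wells. All 6 of its probes (Cyp1a1, Cyp1a2, Cyp1b1, Aldh3a1, Tiparp and Ahrr) rose with benzo[a]pyrene against DMSO, from 2.59 ± 0.23 for Tiparp to 10.39 ± 0.23 for Cyp1b1, and together they summed to 5190 to 6074 CPM after benzo[a]pyrene, against 103 to 115 CPM in DMSO. In NE at 10 mM the sum was 115 to 144 CPM, against 81.1 to 88.3 CPM in medium, with Cyp1a1 higher (1.99 ± 0.26) and Cyp1a2 lower (-1.26 ± 0.34) among 5 probes tested. With CITCO the sum was 89.6 to 138 CPM at 20 µM and 235 to 264 CPM at 10 µM. The part of the AhR in the NRF2 target changes was not tested.

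Across the 24 groups of set 1 each gene had its own order of levels. NE at 10 mM was the highest group for Ugdh (293 CPM), Txnrd1 (260 CPM), Hmox1 (378 CPM), Gclc (172 CPM) and Abcc4 (23.7 CPM), and benzo[a]pyrene for Ptgr1 (661 CPM), Nqo1 (549 CPM) and Gclm (70.6 CPM). The second group was benzo[a]pyrene for Ugdh (157 CPM), Txnrd1 (174 CPM), Gclc (157 CPM) and Abcc4 (11.4 CPM), and CITCO at 20 µM for Hmox1 (309 CPM). The second-highest mean of Ptgr1 (330 CPM), Nqo1 (86.8 CPM) and Gclm (43.2 CPM) was in NE at 10 mM. NE at 10 mM and benzo[a]pyrene, the first and second groups for Gclc and Txnrd1, did not differ beyond their spread in either gene by the test given above. Past the top 3, the other 21 group means ran from 31.4 to 55.0 CPM for Nqo1, 143 to 246 CPM for Hmox1, 78.6 to 135 CPM for Ptgr1 and 62.0 to 96.8 CPM for Ugdh, with median SDs between wells of 4.60, 12.7, 9.78 and 6.43 CPM. Those means ran from 59.9 to 89.1 CPM for Gclc, 21.3 to 37.7 CPM for Gclm, 58.8 to 120 CPM for Txnrd1 and 4.58 to 9.03 CPM for Abcc4, with median SDs of 6.88, 4.29, 14.9 and 1.27 CPM, so that most neighbours among those 21 groups lie within the spread of their wells.

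In set 2, 1NP at 10 mM had the highest mean for Nqo1 (69.3 CPM), Ptgr1 (185 CPM), Ugdh (117 CPM), Txnrd1 (172 CPM), Abcc4 (12.5 CPM) and Gclm (26.4 CPM), each carried by replicate 3. DMSO had the highest mean for Hmox1 (180 CPM) and Gclc (77.3 CPM). The other group means of set 2 ran from 34.1 to 57.1 CPM for Nqo1 and from 54.6 to 106 CPM for Ptgr1.

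The group means of the genes moved together to unequal degrees. As a description over the 24 group means of set 1, which share libraries, plates and controls, Pearson's r of each gene with the mean of the other 7 was highest for Ugdh (0.922) and Gclc (0.918) and lowest for Hmox1 (0.626). Between single genes it ran from 0.365 (Nqo1 and Hmox1) to 0.930 (Nqo1 and Ptgr1). Among 7614 other probes with a mean of at least 10 CPM, the 5 whose group means were most like the mean profile of the 8 were AABR07054319.1 (r = 0.949), Tsku (0.928), Ceacam1 (0.921), the transcription factor gene Cebpb (0.912) and Akr7a3 (0.911). Akr7a3, an aldehyde reductase that acts on aflatoxin dialdehyde, had means of 367 CPM in NE at 10 mM, 294 CPM after benzo[a]pyrene and 66.6 CPM in medium.

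Other known NRF2 targets were followed from a list of 45 symbols, of which 37 had a probe (38 probes). After benzo[a]pyrene 19 of the 38 were higher than in DMSO and none was lower, with a median change of 0.51 against 0.00 over all probes. In that comparison 496 of 12102 probes were higher and 614 lower. The glutathione transferase genes Gsta2 (5.05 ± 0.24) and Gsta5 (4.74 ± 0.36) moved most, and since such transferases resemble each other in sequence their reads may not be fully separable. Akr1b8, an aldo-keto reductase, was higher by 2.77 and 2.61 on its 2 probes, Akr7a3 by 2.12 ± 0.13 and Gsta4 by 2.09 ± 0.15. The cystine importer gene Slc7a11, named after its value was seen, was higher by 1.15 ± 0.22. In the glutathione and thioredoxin part of the list 7 of 15 probes were higher, and among detoxification, iron and export genes 10 of 18.

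With CITCO at 20 µM, 5 of the 38 were higher than in DMSO (Gsta2, Gsta5, Gsta4, Aox1 and Ephx1), where 45 of 12102 probes were higher and 57 lower. Against medium 13 were higher and 4 lower, led by Gsta2 (3.84 ± 0.24), Gsta5 (3.60 ± 0.37), Gsta4 (1.26 ± 0.15), the aldehyde oxidase Aox1 (1.22 ± 0.13), the epoxide hydrolase Ephx1 (1.19 ± 0.10) and the microsomal transferase Mgst1 (0.97 ± 0.11). Both Akr1b8 probes, Cbr1 and Gpx2 were the 4 lower ones. In that comparison with medium 887 of 12102 probes were higher and 898 lower. At 10 µM, 3 of the 38 were higher than in DMSO (Akr7a3, Gpx2 and Gsta2) and 8 higher than in medium. Of all 12102 probes, 11 were higher and 7 lower than in DMSO, and 222 higher and 90 lower than in medium.

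In NE at 10 mM 16 of the 38 were higher than in medium and 3 lower, with a median change of 0.43. In that comparison 2131 of 12364 probes were higher and 2227 lower. Without the libraries that stood apart the counts were 20 and 3, in a fit that called 18.1% of 12405 probes higher and 18.7% lower. Gsta2 (3.11 ± 0.33), Gsta5 (2.62 ± 0.31), Aox1 (2.56 ± 0.21), Akr7a3 (2.49 ± 0.28) and the glutaredoxin Glrx (1.93 ± 0.28) were higher. Gpx2, a glutathione peroxidase, ran the other way, at a mean of 65.8 CPM in NE at 10 mM, against 285 CPM in medium (-2.09 ± 0.20, adjusted p = 2.26e-09). Slc7a11 (1.34 ± 0.25), the ferritin heavy chain Fth1 (1.46 ± 0.26) and the exporter Abcc3 (1.27 ± 0.15) were higher, whereas Gss, which completes glutathione, was lower (-0.97 ± 0.26); these 4 were named after their values were seen. Gclc rose and Gss fell in the same wells. Against DMSO the counts were also 16 and 3, where 1799 of 12364 probes were higher and 1953 lower. Without the libraries that stood apart they were 20 and 5 (15.4% of probes higher, 16.3% lower).

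In NM at 10 mM none of 37 probes tested was called against medium, and 1 was higher and 6 lower against DMSO, where 4.49% of all probes were higher and 3.47% lower. Without the libraries that stood apart these counts were 5 and 6, beside 6.06% of 12307 probes higher and 5.15% lower. In 1NP at 10 mM 12 of the 38 were higher than in medium and none lower, where 7.92% of all probes were higher and 5.35% lower, led by Akr7a3 (2.94 ± 0.72), Gsta5 (2.92 ± 0.72), Gsta2 (2.79 ± 0.69), Aox1 (2.20 ± 0.49), Gsta4 (1.72 ± 0.40) and Fth1 (1.40 ± 0.31). Akr7a3 had 46.2, 40.4 and 535 CPM in the 3 wells, against 44.7, 28.8 and 15.2 CPM in medium. Without replicate 3 none of the 38 was called against medium. Against DMSO 3 of the 38 were higher and none lower (both Akr1b8 probes and Gsta3, named after their values were seen; 1.02% of all probes higher, 0.888% lower), and without replicate 3 the counts were 3 higher and 3 lower (2.11% and 1.87% of all probes).

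Of the 7 genes of the NRF2 regulators, Nfe2l2 itself was higher after benzo[a]pyrene, at a mean of 548 CPM against 267 CPM in DMSO (0.97 ± 0.08, adjusted p = 3.96e-10), and was the 1 of the 7 called there. Over all probes 496 of 12102 were higher and 614 lower in that comparison. Keap1, which encodes its inhibitor, was called against medium (0.53 ± 0.16), as were Nfe2l2 and Maff. Against medium 1126 of 12102 probes were higher and 1256 lower. In NE at 10 mM Bach1, which encodes a repressor at the same elements, was higher than in medium, at a mean of 48.5 CPM against 18.8 CPM (1.34 ± 0.20, adjusted p = 5.40e-06), beside Nfe2l2 (0.37 ± 0.13) and Maff (1.40 ± 0.47). Calls were common in that comparison, with 2131 of 12364 probes higher and 2227 lower. The count of 3 of 7 is therefore no result about the regulators as a set. Against DMSO Bach1 alone was called (0.91 ± 0.20), with adjusted p of 0.0532 for Nfe2l2 and 0.184 for Maff. There 1799 of 12364 probes were higher and 1953 lower. CITCO at either concentration and NM at 10 mM called none of the 7 against either control. In 1NP at 10 mM Bach1 was higher (0.85 ± 0.25) and Mafg lower (-0.66 ± 0.20) than in medium, neither was called without replicate 3, and none of the 7 was called against DMSO. With all replicates of 1NP at 10 mM, 963 of 12160 probes were higher than in medium and 651 lower.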

How the data were processed

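Counts per detector probe from TempO-Seq were deposited by the authors as whole numbers, not normalized; the submitters' processing notes name Bowtie, FastQC, DESeq2 1.28.1 and R 3.5.3 without saying what each was used for. Library totals ran from 5475419 to 11122665. From these counts, CPM was computed on library totals, and edgeR 4.0.16 (R 4.3.3, limma 3.58.1) was run with TMM scaling, filterByExpr (minimum count 10) and robust quasi-likelihood tests, with Benjamini-Hochberg adjustment over all probes at 0.05. Standard errors were taken from the log2 change and F, and 95% intervals used a normal quantile. Each nitroalkane was fitted with both controls of its set (30 libraries), the reference compounds with their controls (24 and 9 libraries), and pairs of compounds alone (6 libraries, or 12 with medium of each set). The scripts were tested on simulated data.

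Groups came from the labels. Concentrations of the nitroalkanes follow the protocol (mM), where sample titles give µM; the DMSO share also differs between titles and protocol, and the dose of WY-14643 in set 2 is given in 2 ways and is not printed. The genes and lists were chosen with earlier results of these data known. All 8 genes with a probe are named; of the other NRF2 targets, the 6 with the largest called change and a mean of at least 10 CPM in each of 5 comparisons are named. The most alike probes were ranked on log2(CPM + 1). Of 20946 symbols, 15980 matched the rat RefSeq table (GRCr8). Replicates differed by more than counting noise. Per the library names, replicate numbers follow plate columns, which benzo[a]pyrene, DMSO and medium of set 1 share. Deviations of same-numbered benzo[a]pyrene and DMSO libraries correlated at 0.445, 0.198 and 0.596, but not every library correlated best with its own number. The main tests compared group means without pairing, and the replicate block was run as an alternative. Alternatives were DESeq2 1.42.0, RLE scaling, no filter, fits on the compared libraries alone, a replicate block, CPM on TMM library sizes and leaving out libraries.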

Additional observations from a re-analysis of the deposited data

How the results depend on the processing

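No value changed direction past a threshold. Of 409 gene values, DESeq2 changed 8 calls, RLE scaling 1 and no filter 41. The 409 leave out values below 1 mM that the main fit did not call, so calls gained there are not among these changes. The direction of those values was not checked. The counts below are of the 8 genes called and do cover those values. Without the filter on low counts, the count against DMSO was 3 for CITCO 20 µM, 2 for CITCO 10 µM, 2 for rifampin 20 µM, 1 for WY-14643 of set 2, 0 for NM 10 mM, 0 for NE 1 mM, and 2, 3 and 4 for 1NP at 1, 3 and 10 mM. Against medium it was then 1, 1 and 6 for 1NP at 1, 3 and 10 mM. The slope counts were 0 for NM and 6 for 1NP, and the counts below 1 mM were 2 for NM, 16 for 1NP and 1 for NE against NM. The 2 of NM and 11 of 1NP were against DMSO, where 1.18% and 4.84% of all probes were called. The other 5 of 1NP were against medium, with 2.48% of all probes. In fits on the compared libraries alone, the count against DMSO was 2 for CITCO 10 µM, 2 for rifampin 20 µM, 2 for WY-14643 of set 2, 0 for NM at 1 and 10 mM, 0 for NE 1 mM, and 2 and 0 for 1NP at 3 and 10 mM. Against medium it was 1 for WY-14643 of set 2 and 0 for 1NP 10 mM, the NM slope had 0, and below 1 mM NM had 15, NE 15 and 1NP 27. All 15 of NM, 9 of NE and 24 of 1NP were against DMSO, where those fits called 8.25%, 9.1% and 20.0% of all probes, while 6 of NE and 3 of 1NP were against medium, with 2.1% and 1.63% of all probes. With DESeq2, the count against DMSO was 1 for CITCO 20 µM, 2 for CITCO 10 µM, 2 for rifampin 20 µM, 2 for NE 1 mM and 3 for 1NP 10 mM, the 1NP slope had 1, and below 1 mM NM had 7, NE 9 and 1NP 2. Those below 1 mM were all against DMSO, where DESeq2 called 3.72% (NM), 6.25% (NE) and 6.84% (1NP) of all probes. Without the 6 libraries that stood apart, the count against DMSO was 2, 2 and 3 for NM at 1, 3 and 10 mM, NE below 1 mM had 2, the NM slope 0, 1NP 10 mM against medium 0 and 1NP against NE at 10 mM 6 (15.3% of all probes). The cause of these differences was not tested. Counts without a share of all probes beside them describe how calls depend on processing and are no result about the 8 genes.

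Leaving out single replicates gave counts of 0 to 2 (CITCO 20 µM against DMSO), 0 to 1 (CITCO 10 µM against DMSO), 1 to 2 (CITCO 10 µM against medium), 0 to 2 (rifampin 20 µM against DMSO), 1 to 2 and 0 to 1 (WY-14643 of set 1 against DMSO and medium), 0 to 1 (CITCO 20 against 10 µM), 1 to 3 (medium against DMSO, set 1), 1 to 2 (WY-14643 of set 2 against medium), 2 to 4, 1 to 4 and 0 to 1 (NM, NE and 1NP below 1 mM, controls left out only), 0 to 1 (NM 10 mM against DMSO), 0 to 2 (NM slope), 0 to 0 (NE 1 mM against DMSO), 2 to 3 (NE 3 mM against medium), 0 to 3 and 0 to 5 (1NP 10 mM against DMSO and medium), 0 to 4 (1NP slope) and 4 to 7 (NE against NM at 10 mM). With NE at 10 mM the count stayed 7 against either control, and with benzo[a]pyrene it was 6 to 7. This was not run for NE against NM at 1 mM and below, nor for the 1NP comparisons with NM and NE. These counts have no share of all probes beside them and describe only how calls depend on single wells.

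Same-numbered libraries correlated at -0.524 to 0.596 in their deviations. All 3 pairs were over 0.1 for benzo[a]pyrene and DMSO (0.445, 0.198 and 0.596), and the block changed no call there; in the other 6 pairs of groups checked at least 1 pair was not, and these were taken to share only a number. With the replicate block, of 312 values 2 lost their call (Ugdh with WY-14643 of set 2 against medium, adjusted p = 0.0639, and Hmox1 in NE against NM at 10 mM, adjusted p = 0.0511), and NE against NM at 10 mM had 6 genes; of the NE values below 1 mM, 6 were called with the block and 4 without. All of those NE calls were against DMSO, where 3.84% of all probes were called with the block and 3.79% without. The 1NP libraries and the controls of set 2 share no replicate numbers, so that no block was possible between them. CPM on TMM library sizes moved 8 of 280 group levels by more than 1 SD.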
